A study of Mus musculus with 12 samples.

Results

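The comparison described here is Mirc11 knockout against wild-type in splenic NK cell preparations from mice that had received no Listeria. Mirc11 is the cluster of miR-23a, miR-27a and miR-24-2 on mouse chromosome 8. The members are the 3 Mirc11-/- and 3 wild-type libraries without challenge, which are 6 of the 12 libraries of the study, compared over 16199 expressed genes off the X and Y chromosomes. The wild-type group holds replicates 2, 3 and 4 from C57BL/6 mice, and the knockout group holds replicates 2, 3 and 4 of genotype Mirc11-/- on the same labelled strain. All 6 were polyA RNA of spleen NK cells obtained by negative isolation, in which other cells are removed and NK cells are left untouched. The other 6 libraries, 3 per genotype, came from Listeria-challenged animals. The study's title asks whether Mirc11 acts on NK cell inflammatory responses through ubiquitin modifiers and through NF-kB and AP-1 downstream of TRAF6. The labels call the replicates biological without saying that each is a separate animal, so p-values measure the spread between these libraries. They give no age, sex, deleted interval or purity, and they do not say whether the deletion is confined to NK cells.

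NK cells are innate lymphocytes that kill infected or transformed cells with perforin and granzymes and secrete interferon-gamma early in infection. A microRNA pairs through its seed, the bases near its 5′ end, with matching sites in 3′ UTRs, and lowers the stability or translation of those transcripts. Ubiquitin modifiers such as A20 (Tnfaip3), Cbl-b, Itch and Cyld attach or remove ubiquitin and restrain receptor signalling, whereas TRAF6 builds ubiquitin chains that activate the kinases upstream of NF-kB and AP-1.

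The mature sequences encoded by the cluster are shown because their seeds, in capitals, decide which transcripts carry a site. They are the RefSeq sequences on GRCm38, written 5′ to 3′. All 3 lie on the plus strand of chromosome 8, miR-23a-3p at chr8:84208563-84208583, miR-27a-3p at chr8:84208727-84208747 and miR-24-3p at chr8:84208875-84208896.
mmu-miR-23a-3p: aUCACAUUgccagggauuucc
mmu-miR-27a-3p: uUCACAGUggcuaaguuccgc
mmu-miR-24-3p: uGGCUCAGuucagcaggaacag
mmu-miR-27b-3p: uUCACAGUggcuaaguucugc
The fourth line is miR-27b-3p from chr13:63300760-63300780, which shares the seed of miR-27a-3p. The same mature miR-24-3p is also encoded on chromosome 13, at chr13:63301251-63301272, so a Mirc11 deletion leaves a second gene for that sequence. The sequences available here did not settle whether another gene carries the miR-23a seed.

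The 22-base stretches that follow are sites of these microRNAs in the 3′ UTRs of 5 signalling genes that the study's title points to, with the paired bases in capitals and read 5′ to 3′ on the strand of the gene. The first 3 are in Tnfaip3, on the minus strand at chr10:19001057-19001078, chr10:19002394-19002415 and chr10:19002666-19002687.
Tnfaip3, miR-23a site: tgattttcattgttAATGTGAA
Tnfaip3, miR-24 site: gactggcagcagttcCTGAGCC
Tnfaip3, miR-27a site: gccattcacagtggtACTGTGA
Cblb, miR-23a site: gcagagctcttcatAATGTGAA
Itch, miR-27a site 1: ttattgtaaacttggACTGTGA
Itch, miR-27a site 2: ttggcttagcattagACTGTGA
Cyld, miR-27a site: gaattctatttctctACTGTGA
Traf6, miR-24 site: tgagaagcccagtgCTGAGCCA
The other sites are on the plus strand, in Cblb at chr16:52207604-52207625, in Itch at chr2:155224546-155224567 and chr2:155225599-155225620, in Cyld at chr8:88749473-88749494 and in Traf6 at chr2:101699680-101699701. The motifs searched were AATGTGA for miR-23a-3p, ACTGTGA for miR-27a-3p and CTGAGCC for miR-24-3p on the transcript strand, each called an 8mer where an A follows. The miR-23a and miR-27a motifs do not contain one another. Among 20938 annotated 3′ UTRs, 15.1% held the miR-23a motif, 16.1% the miR-27a motif and 16.3% the miR-24 motif. A match is a description of the letters and not evidence of binding.

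The 6 libraries held 17624530 to 22108403 counts and are given below as CPM, counts scaled to the size of the library with TMM factors. The 3 hairpins of the cluster (chr8:84208518-84208592, chr8:84208672-84208758 and chr8:84208815-84208921) had 0 counts in all 12 libraries, in polyA libraries that do not capture such short RNAs, so they check nothing about the genotype labels. Transcripts beside the locus do separate the groups. Gm26532, which overlaps the miR-24-2 hairpin, stood at 2.62, 2.29 and 4.80 CPM in wild-type replicates 2, 3 and 4 and at 0.112, 0.494 and 0.147 CPM in the knockout (log2 fold change -3.60 ± 0.60 SE, edgeR quasi-likelihood test with Benjamini-Hochberg adjustment, adjusted p = 0.00133). Gm37352, about 5 kb away, went the other way, from 2.99, 4.83 and 6.65 CPM to 57.5, 60.0 and 60.9 CPM (log2 3.62 ± 0.30, edgeR adjusted p = 1.54e-05). The groups did not overlap for either transcript. The sources used here do not say whether reads were counted by strand, so overlapping transcripts there cannot be told apart.

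The libraries also differed in sex-linked transcripts. Xist, the RNA that silences an X chromosome in females, was at 1981, 1691 and 1179 CPM in wild-type replicates 2, 3 and 4 and at 1.07, 0.359 and 0.736 CPM in the knockout. The sum of 4 Y-linked transcripts (Ddx3y, Eif2s3y, Kdm5d and Uty) was 3.20, 2.89 and 115 CPM in wild-type and 356, 319 and 281 CPM in knockout. Wild-type replicate 4 therefore held both Xist and Y-linked RNA. Genotype and sex cannot be told apart in this comparison, also for genes off the X and Y. Several results that lean on wild-type replicate 4 are given with and without it, but not every count.

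Over the 16199 genes, 1085 were higher and 821 lower in knockout at an adjusted p below 0.05, which is 6.7% and 5.07% of those tested by edgeR (11.8% in both directions). The median log2 fold change over all genes was -0.01. Counts for each gene list below are to be read against these shares. Of the called genes, 444 rose and 216 fell by at least 2-fold, and 350 of the higher and 396 of the lower ones changed by less than 1.5-fold. For 5136 genes (31.7%) the 3 knockout libraries did not overlap the 3 wild-type libraries. In all 19 fits that were run, 487 genes stayed called higher and 334 stayed called lower. The count of lower genes was 537 without wild-type replicate 2, 487 without wild-type replicate 3 and 531 without knockout replicate 3. Without wild-type replicate 4 the counts were 857 higher and 707 lower.

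Immunoglobulin and T cell receptor segments, pseudogenes and clone-named genes were left aside, and the 12 largest changes per direction were taken among called genes that reached 5 CPM in 1 genotype and did not overlap between groups. The increases were led by neutrophil granule genes, and the decreases included genes of platelets and of chromosome 8. Neutrophils store antimicrobial proteins in granules that are made while the cell matures in the bone marrow. Ltf, encoding the iron-binding protein lactoferrin, was at 3.15, 3.83 and 2.10 CPM in wild-type and at 72.1, 72.7 and 78.6 CPM in knockout (log2 4.62 ± 0.23, edgeR adjusted p = 1e-07). Camp, the cathelicidin precursor, stood at 1.82, 1.59 and 1.0 CPM against 24.8, 28.3 and 26.9 CPM (log2 4.18 ± 0.22, edgeR adjusted p = 1.54e-08). Every knockout library lay far above every wild-type library for both, but both were chosen among genes without overlap (31.7% of all genes). Lcn2, which binds bacterial siderophores, went from 1.39, 2.59 and 1.75 CPM to 29.7, 32.2 and 32.3 CPM (log2 4.03 ± 0.20). S100a8 and S100a9, the 2 chains of calprotectin, rose from 11.8, 9.75 and 10.3 CPM to 86.4, 89.5 and 80.8 CPM and from 20.6, 19.1 and 18.4 CPM to 137, 136 and 146 CPM. Mpo, the myeloperoxidase of primary granules, rose from 2.30, 3.73 and 3.35 CPM to 24.5, 24.4 and 25.3 CPM (log2 2.98 ± 0.14). Within the list of 24 neutrophil markers, 20 rose and 0 fell, with a median log2 fold change of 2.82 against -0.01 over all genes. Mmp9 (log2 0.74) and Csf3r (log2 0.85), chosen after their values were seen as the smallest changes among the 20, rose least, and Retnlg (log2 0.29, edgeR adjusted p = 0.23) and Padi4 (log2 0.15) were not called. The summed level of the list was 114 to 118 CPM in wild-type and 619 to 646 CPM in knockout. In RNA from a cell mixture, fewer cells of a type and less RNA per cell cannot be told apart, here and for each marker list that follows.

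**Figure D1:**
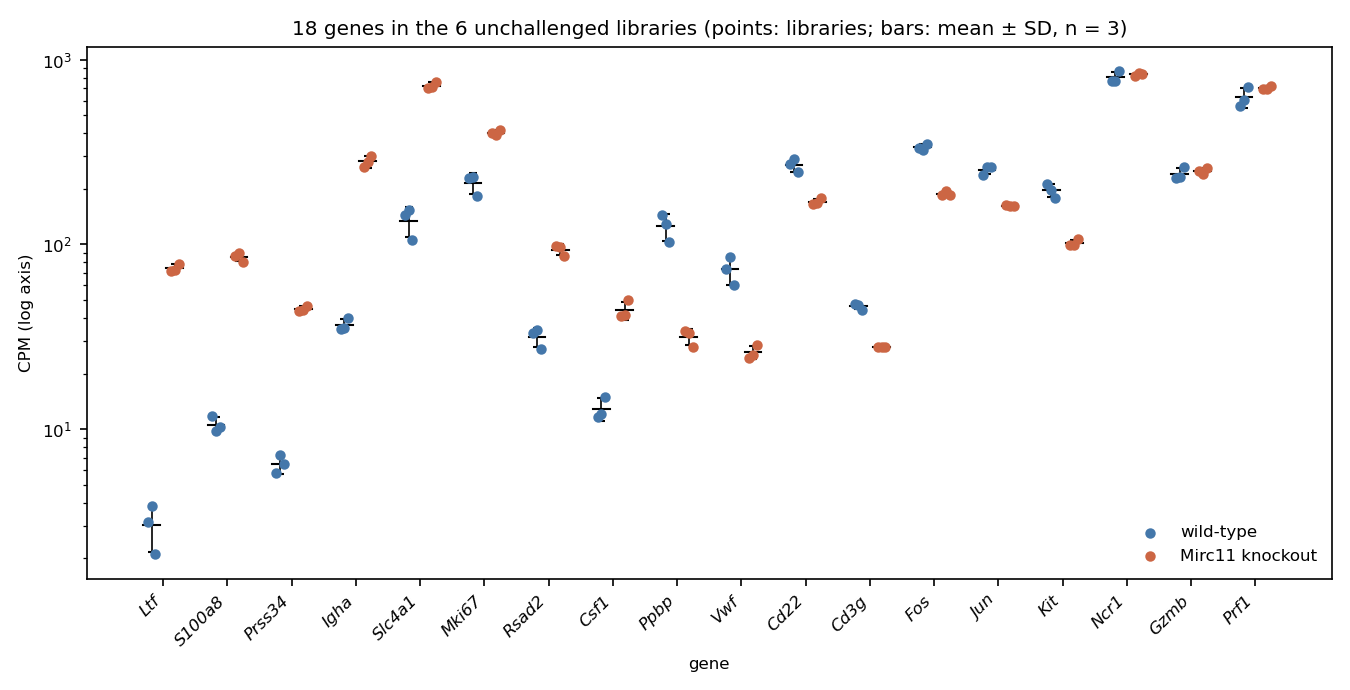
CPM (log axis) of 18 genes in each of the 6 unchallenged libraries, with the mean and SD of 3 libraries per genotype. Neutrophil, basophil, IgA, erythroid and mitotic genes sit higher in knockout, platelet, B cell, T cell and AP-1 genes sit lower, and Ncr1, Gzmb and Prf1 overlap between the genotypes.

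Most red cell genes rose. Red cell precursors make haemoglobin, assemble heme in mitochondria and build a membrane skeleton of spectrin, ankyrin and band 3. Slc4a1, encoding band 3, was at 144, 154 and 106 CPM in wild-type and at 702, 709 and 757 CPM in knockout (log2 2.42 ± 0.16, edgeR adjusted p = 1.17e-06). Epb42, a partner of band 3 in the skeleton, stood at 13.3, 13 and 10.8 CPM against 62.3, 64.4 and 63.2 CPM (log2 2.36 ± 0.12, edgeR adjusted p = 7.79e-09). The groups lay apart for both, with wild-type replicate 4 the lowest of its group. Fech, the last enzyme of heme synthesis, rose from 57.9, 56.6 and 48.7 CPM to 160, 161 and 157 CPM (log2 1.55 ± 0.09). By role, 4 of 4 globin genes, 21 of 22 membrane or skeleton genes, 12 of 15 genes of heme synthesis or iron uptake and 5 of 9 transcription factors or receptors were higher, and none was lower. That is 42 of 50 erythroid markers, with a median log2 fold change of 1.14. Haemoglobin transcripts took 1.13%, 1.32% and 1.18% of the counts in wild-type and 3.53%, 3.71% and 3.98% in knockout, means of 1.21% ± 0.10 and 3.74% ± 0.23 (SD, n = 3, exact two-sided permutation test, p = 0.1, the smallest that 3 against 3 allows). Hba-a1 with Hba-a2, and Hbb-bs with Hbb-bt, are near-identical copies, so how reads were divided within each pair is uncertain. Leaving the haemoglobin genes out of the table gave 1115 genes higher and 814 lower elsewhere.

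The basophil proteases Prss34 and Mcpt8 rose while Mcpt4 and Tpsb2, proteases of connective tissue mast cells, fell. Prss34, a basophil serine protease, was at 5.77, 7.26 and 6.45 CPM in wild-type and at 43.8, 44.1 and 46.6 CPM in knockout (log2 2.78 ± 0.10, edgeR adjusted p = 8.86e-10). Mcpt8, another basophil protease, rose from 3.36, 4.33 and 3.15 CPM to 26.2, 25.5 and 26.3 CPM (log2 2.84 ± 0.12). Hdc, the enzyme that makes histamine, rose from 8.54, 10.8 and 10.3 CPM to 49.3, 48.0 and 51.9 CPM, and Fcer1a, the IgE-binding chain of the high-affinity receptor, from 2.88, 2.39 and 3.05 CPM to 13.5, 14.1 and 12.8 CPM. Every knockout library lay above every wild-type library for all 4 genes, which was a condition of the choice of Prss34 and Mcpt8. Mcpt4, chosen after its values were seen, was at 3.58, 3.93 and 4.6 CPM in wild-type and 0.841, 1.03 and 0.884 CPM in knockout (log2 -2.12 ± 0.19, edgeR adjusted p = 1.94e-06). Kit, the stem cell factor receptor found on mast cells and progenitors and on some NK cells, fell from 211, 198 and 179 CPM to 99.5, 99.8 and 107 CPM (log2 -0.94 ± 0.06, edgeR adjusted p = 1.29e-07). Over the list of 14 mast cell and basophil markers, 9 were higher and 4 lower. The list was not divided by cell type, and its lower members were not all mast cell proteases.

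Other myeloid lists had smaller medians. Of 17 dendritic cell markers, 9 were higher and 1 lower (median log2 0.40). The higher count was 7 without wild-type replicate 4. Siglech, a receptor of plasmacytoid dendritic cells, was at 18.4, 18.2 and 23 CPM in wild-type and 52.0, 55.3 and 50.1 CPM in knockout (log2 1.40 ± 0.10, edgeR adjusted p = 2.07e-07). Of 23 macrophage and monocyte markers, 10 were higher and 1 lower (median log2 0.35, range -1.64 to 0.81), so the change of largest size was a decrease. That count of 10 was 6 without wild-type replicate 3, without wild-type replicate 4, without knockout replicate 2 or without knockout replicate 3. Mpeg1, a pore-forming protein of macrophages, was at 93.5, 90.3 and 88.0 CPM against 156, 160 and 157 CPM (log2 0.80 ± 0.09). The complement genes C1qa (log2 -0.01), C1qb (log2 0.16) and C1qc (log2 0.14), chosen after their values were seen, were not called. Of 18 stromal and endothelial markers, 6 were higher and 4 lower, with a median log2 of -0.09 and a range of -1.94 to 1.58. Among the higher ones was Stab2, a scavenger receptor of sinusoidal endothelium, at 8.70, 10.1 and 9.80 CPM against 25.6, 25.6 and 27.3 CPM (log2 1.46 ± 0.11). Among the lower ones was Vwf, which is also on the platelet list and is described with it.

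Platelet transcripts were lower in knockout. Platelets carry RNA from megakaryocytes for granule proteins and adhesion receptors. Ppbp, the precursor of platelet chemokines, was at 144, 128 and 103 CPM in wild-type and 33.9, 33.3 and 28 CPM in knockout (log2 -1.98 ± 0.13, edgeR adjusted p = 2.3e-07). Vwf, the adhesive von Willebrand factor, stood at 73.8, 85.9 and 60.3 CPM against 24.3, 25.3 and 28.5 CPM (log2 -1.49 ± 0.15, edgeR adjusted p = 1.23e-05). Gp6, the collagen receptor, was at 18.7, 19.0 and 14.4 CPM against 5.61, 4.76 and 6.73 CPM (log2 -1.61 ± 0.15). Wild-type replicate 4 was the lowest wild-type library for all 3 and still lay above every knockout library, as the choice of Ppbp required. In the list of 16 platelet and megakaryocyte markers, 15 fell and 0 rose, with a median log2 fold change of -1.25 and a summed level of 811 to 1083 CPM in wild-type against 390 to 419 CPM in knockout. Without wild-type replicate 4, 15 were still lower. Further large decreases included Alox12, the platelet lipoxygenase (81.6, 96.0 and 66.7 CPM against 27.7, 28.1 and 30.5 CPM), and Thbs1, thrombospondin 1 (87.5, 94.0 and 65.4 CPM against 34.4, 34.6 and 32.3 CPM). Gucy1b3, a subunit of the nitric oxide receptor guanylate cyclase, fell from 11.5, 11 and 8.15 CPM to 2.91, 2.78 and 2.65 CPM (log2 -1.88 ± 0.16).

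B cell and T cell genes were lower by smaller factors. Of 21 B cell markers, 20 fell and 0 rose, with a median log2 fold change of -0.55. Cd22, an inhibitory co-receptor of the B cell receptor, was at 273, 289 and 246 CPM in wild-type and 166, 167 and 178 CPM in knockout (log2 -0.66 ± 0.08, edgeR adjusted p = 3.28e-05). Pax5, the transcription factor of B cell identity, stood at 184, 193 and 169 CPM against 126, 122 and 128 CPM (log2 -0.54 ± 0.06). Of 18 T cell markers, 8 fell and 1 rose (median log2 -0.51), the one that rose being Ccr9, a homing receptor that is also on the dendritic cell list. Cd3g, a chain of the T cell receptor complex, was at 47.5, 47.1 and 44.4 CPM against 27.7, 27.8 and 27.9 CPM (log2 -0.74 ± 0.09, edgeR adjusted p = 3.59e-05). The groups did not overlap for these 3 genes. Cd4 (log2 -0.20) and Cd8a (log2 -0.25), chosen after their values were seen, were not called.

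Igha, the constant region of IgA heavy chains, was higher in knockout. It was at 35.1, 35.3 and 40.0 CPM in wild-type and 261, 280 and 302 CPM in knockout (log2 2.93 ± 0.16, edgeR adjusted p = 2.3e-07). The plasma cell list of 13 genes had 2 higher and 5 lower members. Sdc1, the surface marker CD138, was at 8.97, 11.2 and 8.25 CPM against 3.81, 4.31 and 4.76 CPM (log2 -1.14 ± 0.17, edgeR adjusted p = 0.000256), and Jchain, which links IgA and IgM into polymers, was not called (log2 0.16, edgeR adjusted p = 0.57). The lower count of 5 was 3 without wild-type replicate 2, 2 without wild-type replicate 3 and 3 without knockout replicate 3. The higher count of 2 was 1 without wild-type replicate 3, wild-type replicate 4, knockout replicate 3 or knockout replicate 4.

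**Figure D2:**
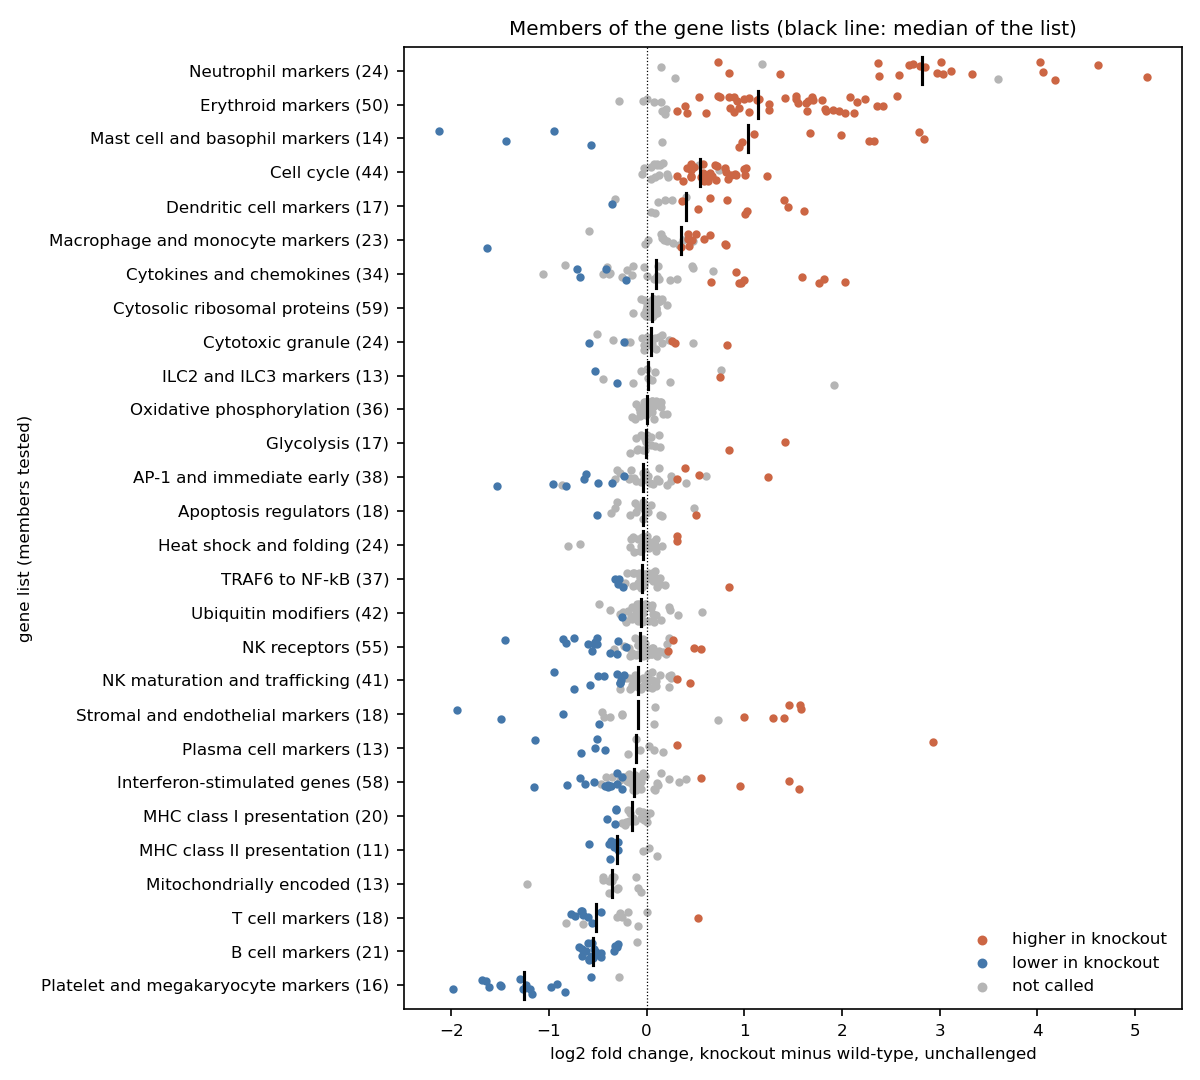
Log2 fold change (knockout minus wild-type, horizontal axis) of every tested member of 28 gene lists, with orange for genes called higher, blue for genes called lower, grey for genes not called and a black line at the median of each list. Neutrophil markers have a median of 2.82 and platelet markers of -1.25, while the medians of NK receptors, ubiquitin modifiers and TRAF6 to NF-kB genes lie within 0.1 of 0.

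Defining genes of NK cells differed between the genotypes by less than the spread between libraries. Ncr1, the activating receptor NKp46, was at 771, 771 and 866 CPM in wild-type and 818, 843 and 833 CPM in knockout (log2 0.05 ± 0.08, edgeR adjusted p = 0.80). Klrb1c, the NK1.1 antigen in C57BL/6, stood at 914, 897 and 996 CPM against 932, 928 and 913 CPM (log2 -0.02 ± 0.06). Eomes, a T-box factor of NK identity, was at 386, 373 and 438 CPM against 401, 382 and 382 CPM (log2 -0.04 ± 0.07). The libraries of the 2 genotypes overlapped for all 3. At these levels NK cell transcripts were present in both groups, beside the markers of other cells described above, and purity was not measured. The activating receptor Klrk1 (NKG2D) overlapped too (log2 -0.01 ± 0.08).

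Of 55 NK receptor genes, 4 were higher and 14 lower (32.7%, against 11.8% of all genes), with a median log2 fold change of -0.06. By role, 4 of 15 activating receptors, 6 of 23 inhibitory or modulatory receptors, 3 of 11 cytokine receptors and 1 of 6 adaptors fell. Tnfrsf9, the co-stimulatory receptor 4-1BB, was at 56.4, 56.2 and 57.3 CPM in wild-type and 38.5, 36.3 and 37.3 CPM in knockout (log2 -0.60 ± 0.06, edgeR adjusted p = 9.95e-06). Il21r, the IL-21 receptor, stood at 83.7, 84.9 and 78.3 CPM against 53.9, 57.7 and 56.1 CPM (log2 -0.56 ± 0.07, edgeR adjusted p = 7.66e-05). Klrg1, an inhibitory lectin receptor of mature NK cells, was at 57.2, 56.9 and 59.6 CPM against 46.2, 47.6 and 47.1 CPM (log2 -0.30 ± 0.06). These 3 differences were small and the groups did not overlap. Pdcd1, the checkpoint receptor PD-1, was low in all libraries, at 2.46, 1.84 and 2.10 CPM against 0.673, 0.674 and 0.982 CPM (log2 -1.45 ± 0.22). Lair1, an inhibitory collagen receptor, rose from 33.4, 28.7 and 32.7 CPM to 47.5, 47.1 and 44.5 CPM (log2 0.55 ± 0.08). Several of the lower receptors are also made by T cells or B cells, whose markers fell in the same libraries, and the part of those cells in the result was not tested. The count of 4 higher genes was 2 without wild-type replicate 2 or knockout replicate 3, and 1 without wild-type replicate 3 or knockout replicate 4. The lower count of 14 was 11 without wild-type replicate 4. The Ly49 (Klra) genes form a near-identical family, so their individual values are uncertain.

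Genes of NK maturation and trafficking showed 2 higher and 10 lower members of 41 (29.3%, against 11.8% of all genes). Tox, a factor required for NK cell development, was at 49.1, 44.4 and 43.6 CPM in wild-type and 30.04, 31.2 and 30.5 CPM in knockout (log2 -0.58 ± 0.09, edgeR adjusted p = 0.000271). Bach2, a transcriptional repressor of lymphocyte effector genes, stood at 111, 115 and 106 CPM against 90.6, 90.0 and 89.4 CPM (log2 -0.30 ± 0.05). Cxcr4, a bone marrow homing receptor, rose from 67.2, 68.3 and 67.9 CPM to 91.0, 86.1 and 99.1 CPM (log2 0.44 ± 0.06, edgeR adjusted p = 0.000194). In each case the 3 knockout libraries lay on one side of the 3 wild-type libraries. S1pr5, which guides NK cells out of lymphoid tissue, was at 183, 185 and 217 CPM against 239, 240 and 247 CPM (log2 0.31 ± 0.09, edgeR adjusted p = 0.0367), and that call was lost without any 1 of wild-type replicate 2, wild-type replicate 3 and the 3 knockout replicates. The maturation factor Tbx21 was at 230, 244 and 259 CPM against 288, 278 and 293 CPM and just missed the threshold (log2 0.23 ± 0.07, edgeR adjusted p = 0.0548). The lower count of 10 was 6 without wild-type replicate 2 or without knockout replicate 4, and 7 without wild-type replicate 4. The higher count of 2 was 1 without wild-type replicate 2, wild-type replicate 3 or any 1 knockout replicate, and 4 with the 6 unchallenged libraries alone.

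The main killing genes were not called. Gzmb, granzyme B, was at 230, 232 and 262 CPM in wild-type and 249, 240 and 259 CPM in knockout (log2 0.05 ± 0.07, edgeR adjusted p = 0.76). Prf1, perforin, stood at 564, 603 and 715 CPM against 691, 694 and 721 CPM (log2 0.16 ± 0.09, edgeR adjusted p = 0.292). The groups overlapped for both. Of 24 cytotoxic granule genes, 3 were higher and 2 lower (20.8%, against 11.8% of all genes). Stx11, a syntaxin needed for granule release, was at 76.9, 68.0 and 68.4 CPM against 50.2, 47.4 and 44.0 CPM (log2 -0.59 ± 0.08, edgeR adjusted p = 7.29e-05), and Rab27a, which docks granules at the membrane, rose from 78.0, 80.4 and 80.9 CPM to 93.2, 97.2 and 96.1 CPM (log2 0.26 ± 0.05, edgeR adjusted p = 0.00469). With the 6 unchallenged libraries alone, 5 were higher and 2 lower. The lower count was 1 without wild-type replicate 3, where Lamp1, a granule membrane protein, lost its call (log2 -0.23 with all libraries).

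Among 34 cytokine and chemokine genes, 9 were higher and 4 lower (38.2%, against 11.8% of all genes). The higher ones included products of myeloid cells and granulocytes. Csf1, the macrophage growth factor, was at 11.6, 12.1 and 15.0 CPM in wild-type and 40.8, 41.4 and 49.9 CPM in knockout (log2 1.77 ± 0.11, edgeR adjusted p = 5.87e-08). Ccl9 and Ccl6, chemokines of myeloid cells, rose from 16.2, 14.9 and 17.3 CPM to 59.4, 56.5 and 54.0 CPM and from 30.5, 26.9 and 32.7 CPM to 93.0, 88.1 and 90.8 CPM. All 3 were higher in every knockout library than in any wild-type library. The summed lists of neutrophil, of macrophage, and of mast cell and basophil markers were higher in the same libraries. Their part in these cytokine values was not tested. The lower ones were Ccl3, Csf2, Tnf and Xcl1, named after their values were seen. Ccl3, an NK chemokine, was at 234, 234 and 251 CPM against 152, 149 and 148 CPM (log2 -0.68 ± 0.17, edgeR adjusted p = 0.0273). The count of 4 lower genes was 1 without wild-type replicate 2 or knockout replicate 4 and 0 without wild-type replicate 3, knockout replicate 2 or knockout replicate 3. Ifng, interferon-gamma itself, was at 87.3, 82.5 and 110 CPM against 71.7, 70.5 and 74.3 CPM, without overlap but short of the threshold (log2 -0.37 ± 0.13, edgeR adjusted p = 0.0992). Without wild-type replicate 4 the difference was -0.23, and over the alternatives its adjusted p ran from 0.0163 to 0.336. Ccl5 was at 1566, 1688 and 1746 CPM against 1793, 1796 and 1881 CPM and was not called (log2 0.13 ± 0.07).

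Interferon-response genes moved in both directions. Of 58, 4 were higher and 13 lower (29.3%, against 11.8% of all genes), with a median log2 fold change of -0.13. Among 14 interferon-gamma-inducible GTPases, which attack the vacuoles of intracellular microbes, 7 fell and 0 rose. Gbp6, one of these guanylate-binding proteins, was at 74.1, 65.1 and 56.8 CPM in wild-type and 28.9, 31.1 and 28 CPM in knockout (log2 -1.15 ± 0.13, edgeR adjusted p = 2.49e-05). Gbp6 and Gbp10, and Tgtp1 and Tgtp2, are closely related copies, and the split of reads within each pair is uncertain. Antiviral effectors held all 4 increases. Rsad2, the antiviral enzyme viperin, stood at 33.4, 34.3 and 27.3 CPM against 97.8, 97.1 and 86.2 CPM (log2 1.57 ± 0.10, edgeR adjusted p = 5.87e-08), and Isg20, an exonuclease, at 23.5, 23 and 21 CPM against 59.5, 60.4 and 66.0 CPM (log2 1.46 ± 0.09). Isg15, a ubiquitin-like modifier, rose from 14.1, 13.9 and 15.2 CPM to 26, 28 and 30.2 CPM (log2 0.96 ± 0.11). No library crossed between the genotypes for these genes. Other antiviral genes stayed uncalled, among them Irf7 (log2 0.08), Ifit1 (log2 -0.22) and Mx1 (log2 0.15), which were chosen after their values were seen. The lower count of 13 was 8 without wild-type replicate 2 and 10 without wild-type replicate 4.

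Several antigen presentation genes were lower. MHC class II carries peptides on B cells, dendritic cells and macrophages, and 8 of its 11 genes fell and 0 rose (median log2 -0.30). H2-Ob, a class II chaperone subunit typical of B cells, was at 179, 182 and 160 CPM in wild-type and 111, 118 and 118 CPM in knockout (log2 -0.59 ± 0.07, edgeR adjusted p = 2.92e-05). H2-Aa, a class II chain, stood at 575, 584 and 549 CPM against 445, 455 and 492 CPM (log2 -0.29 ± 0.07). B cell markers, whose median was -0.55, fell in the same libraries, and their part was not tested. The count of 8 was 2 without wild-type replicate 3, 4 without knockout replicate 2 and 5 without knockout replicate 3. It was 6 without wild-type replicate 4. Of 20 MHC class I genes, 4 fell (20%, against 11.8% of all genes called), led by Nlrc5, the class I transactivator, at 386, 412 and 377 CPM against 284, 288 and 314 CPM (log2 -0.41 ± 0.08, edgeR adjusted p = 0.00362). That count was 2 without wild-type replicate 3, wild-type replicate 4, knockout replicate 2 or knockout replicate 3. It was 8 with the 6 unchallenged libraries alone, 7 without the challenged knockout libraries and 8 without wild-type replicate 4 and the challenged libraries.

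Of 42 ubiquitin modifiers, edgeR called 0 higher and 1 lower (4 and 9 at an unadjusted p below 0.05, 1 and 3 by DESeq2, 1 and 0 by limma-voom), with a median log2 fold change of -0.06 and a range of -0.49 to 0.57. The lower one was Tnip1, the A20-binding protein ABIN1, at 85.9, 93.7 and 87.4 CPM against 74.2, 72.7 and 77.3 CPM (log2 -0.25 ± 0.08, edgeR adjusted p = 0.0454). It lost its call in 10 of 18 other fits, among them those without any 1 of the 6 libraries. With the 6 unchallenged libraries alone, 2 ubiquitin modifiers were higher and 4 lower. Sites of the 3 microRNAs were present in the 3′ UTRs of 23 of the 42 genes, and 0 of those 23 were called by edgeR, with 7 at an unadjusted p below 0.05, 1 by DESeq2 and 0 by limma-voom.

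Tnfaip3, whose 3 sites are shown above, was at 154, 154 and 220 CPM in wild-type and 133, 140 and 136 CPM in knockout (log2 -0.37 ± 0.13, edgeR adjusted p = 0.0909). Wild-type replicate 4 was the highest library, the groups did not overlap, and without that library the log2 fold change was -0.18. Only DESeq2 among the alternatives called Tnfaip3 (adjusted p = 0.0448, range over the alternatives 0.0448 to 0.341). Cblb, the E3 ligase with the miR-23a 8mer, stood at 191, 186 and 199 CPM against 178, 178 and 177 CPM (log2 -0.11 ± 0.05, edgeR adjusted p = 0.254). Itch, an E3 ligase with 2 miR-27a sites, was at 163, 135 and 148 CPM against 137, 134 and 115 CPM (log2 -0.21 ± 0.10, edgeR adjusted p = 0.236). Cyld, a deubiquitinase of NF-kB signalling, was at 173, 153 and 160 CPM against 159, 154 and 140 CPM (log2 -0.11 ± 0.07, edgeR adjusted p = 0.457). These 4 restraining genes had point estimates below 0 in the knockout, and none was called by edgeR with all libraries. Traf6, the ligase with the miR-24 8mer, was at 80.4, 73.9 and 82.2 CPM against 82.1, 85.4 and 77.8 CPM, with overlapping groups (log2 0.05 ± 0.07, edgeR adjusted p = 0.736).

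Among 37 genes from TRAF6 to NF-kB, 1 was higher and 4 were lower, a share of 13.5% that is close to the 11.8% over all genes. Card9, an adaptor of myeloid pattern receptors, rose from 3.95, 4.33 and 3.20 CPM to 7.45, 6.02 and 7.12 CPM (log2 0.84 ± 0.15, edgeR adjusted p = 0.00117). Traf1, an adaptor of TNF receptors with a miR-23a 8mer, fell from 235, 234 and 228 CPM to 189, 189 and 196 CPM (log2 -0.28 ± 0.07, edgeR adjusted p = 0.00977). The other 3 lower genes were Ripk2, Traf5 and Rel, at log2 -0.33, -0.24 and -0.29. The count of 4 was 2 without wild-type replicate 2 or knockout replicate 4, 1 without knockout replicate 2 or knockout replicate 3, and 0 without wild-type replicate 3. The subunit gene Nfkb1 and the NF-kB target and inhibitor Nfkbia were not called, at log2 -0.07 ± 0.06 and 0.14 ± 0.08.

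Fos and Jun were lower in knockout. AP-1 is a dimer of Fos and Jun family proteins whose genes are switched on within minutes of stimulation. Fos was at 331, 323 and 350 CPM in wild-type and 185, 195 and 186 CPM in knockout (log2 -0.83 ± 0.10, edgeR adjusted p = 3.14e-05). Jun stood at 238, 262 and 261 CPM against 163, 162 and 162 CPM (log2 -0.64 ± 0.09, edgeR adjusted p = 0.000198). The 3 knockout libraries were close to each other and below every wild-type library for both genes, and both calls held in each of 18 other fits. Of 38 AP-1 and immediate early genes, 4 rose and 8 fell (31.6%, against 11.8% of all genes). Dusp4, a phosphatase of MAP kinases, was at 3.90, 3.68 and 3.65 CPM against 1.29, 1.12 and 1.47 CPM (log2 -1.53 ± 0.17). Ier3, an early-response gene, rose from 6.62, 5.87 and 8.30 CPM to 16.5, 16.3 and 16.6 CPM (log2 1.25 ± 0.11, edgeR adjusted p = 2.1e-06). Fosl2 (log2 0.32) and Mafg (log2 0.54) were higher, while Junb (log2 -0.03) and Jund (log2 0.07) were not called, all 4 chosen after their values were seen. The higher count of 4 was 2 without wild-type replicate 2, knockout replicate 3 or knockout replicate 4, and 6 without wild-type replicate 4, where 6 were lower. Without wild-type replicate 4 and the challenged libraries, a fit added after seeing the data, 10 were higher and 9 lower, so the balance between the directions depends on the libraries used.

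Proliferation genes were higher in knockout. Of 25 mitosis genes 24 rose, and of 19 DNA replication genes 5 rose, while 0 of the 44 fell. Mki67, the proliferation marker Ki-67, was at 228, 232 and 183 CPM in wild-type and 400, 392 and 416 CPM in knockout (log2 0.91 ± 0.09, edgeR adjusted p = 3.77e-06). Ube2c, a ubiquitin-conjugating enzyme of mitotic exit, stood at 15.0, 13.4 and 12.2 CPM against 32.2, 32.8 and 30.6 CPM (log2 1.24 ± 0.10), and E2f2, a cell cycle transcription factor abundant in red cell precursors, at 41.4, 47.8 and 41.0 CPM against 86.0, 89.1 and 85.4 CPM (log2 1.0 ± 0.07). Wild-type replicate 4 was the lowest library for each of these genes. Without it 24 of the 44 genes were higher. Mcm2 to Mcm7, the replicative helicase genes, were not called, with log2 fold changes of -0.02 to 0.14. Erythroid markers rose in the same libraries, and which cells held the mitotic RNA was not tested.

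The remaining lists are read against the 11.8% called over all genes. Of 36 nuclear genes of oxidative phosphorylation, edgeR called 0 (median log2 0.01, 1 at an unadjusted p below 0.05), and of 59 cytosolic ribosomal protein genes it called 0 (median log2 0.06, 0 at an unadjusted p below 0.05). The 13 mitochondrially encoded genes had a median of -0.35 with 0 called by edgeR at either threshold, and DESeq2 and limma-voom also called 0 in these 3 lists. In this last list mt-Co1 was at 8303, 7497 and 8926 CPM against 6837, 6913 and 5650 CPM (log2 -0.35 ± 0.19, edgeR adjusted p = 0.31). In glycolysis 2 of 17 genes were higher, Bpgm, which makes the regulator of haemoglobin oxygen affinity in red cells (88.5, 90.7 and 88.0 CPM against 235, 231 and 248 CPM), and Hk2, a hexokinase (10.1, 10.7 and 8.55 CPM against 17.2, 18.5 and 16.9 CPM). Of 24 chaperone genes 2 rose, Hspa8 and Hsph1, both at log2 0.31 ± 0.07. Of 18 apoptosis regulators, the survival gene Bcl2l1 rose (log2 0.51 ± 0.09) and the pro-apoptotic Bmf fell (log2 -0.51 ± 0.08), and with the 6 unchallenged libraries alone 2 rose and 3 fell. Of 13 innate lymphoid cell markers 1 rose, the IL-33 receptor Il1rl1 (log2 0.75 ± 0.10), and 2 fell, Il7r (log2 -0.53 ± 0.10) and Klrg1.

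The shares of genes called were close with and without a site for the 3 Mirc11 microRNAs. Levels of the mature microRNAs were not measured, and miR-24-3p and the miR-27a seed are also encoded on chromosome 13. Whether the miR-23a seed is also encoded elsewhere was not established here. Of 13031 tested genes with a 3′ UTR, 5291 held a site of at least 1 of the 3 microRNAs, and 7.41% of these were higher and 5.54% lower. Of the 7740 without a site, 7.27% were higher and 5.18% lower. The median log2 fold change was -0.01 in both groups. Among 2509 genes with an 8mer, 7.53% were higher and 5.62% lower. For single microRNAs, 6.96% of 2111 genes with a miR-23a site, 7.57% of 2273 with a miR-27a site and 7.75% of 2517 with a miR-24 site were higher. The 213 genes with sites of all 3 had the highest share of these groups, 9.39% higher and 6.10% lower, and a median 3′ UTR of 4424 bases against 721 in genes without a site. Counts here show RNA levels only, so changes in translation were not measured.

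**Figure D3:**
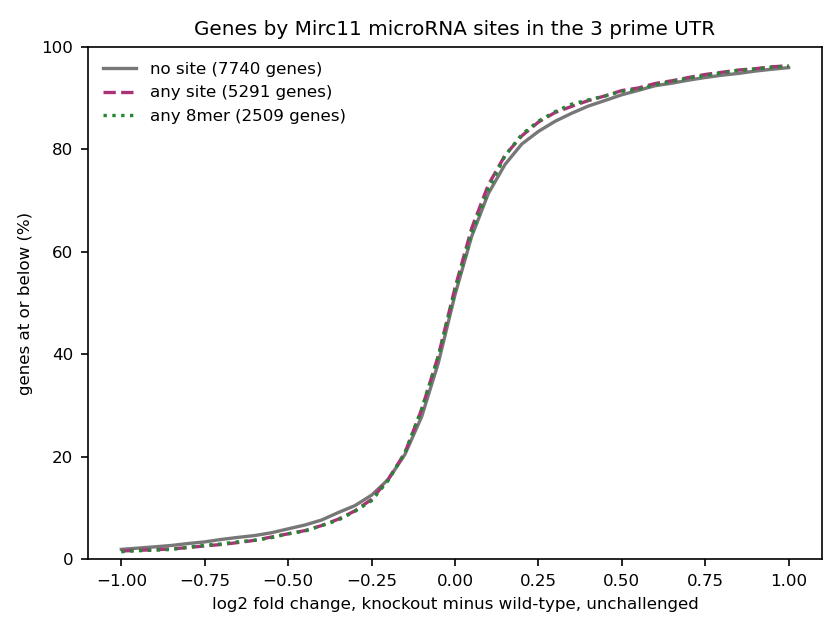
Cumulative share of genes (vertical axis, %) at or below each log2 fold change (horizontal axis, knockout minus wild-type) for genes with no site, any site or any 8mer of the 3 Mirc11 microRNAs. The 3 curves nearly coincide, with medians of -0.01 for each group.

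The share of genes called varied along chromosome 8. Within 1 Mb of the hairpins, 7 of 65 tested genes were higher and 9 lower, or 24.6%, against 11.5% of 15311 genes on other chromosomes. From 1 to 5 Mb the share was 14.6%, from 5 to 10 Mb 13.5% and from 10 to 20 Mb 23.3%, and beyond 20 Mb on chromosome 8 it was 12.5%. The second rise came from 1 side: between 10 and 15 Mb toward lower coordinates, 16 of 122 genes were higher and 21 lower (30.3%), and between 10 and 15 Mb toward higher coordinates 1 of 47 was higher and 2 lower (6.38%). That window was chosen after the values were seen, and neither the difference in share nor its cause was tested.

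Single genes in or near this stretch were among the largest decreases of the comparison. Lzts1, 15.02 Mb from the cluster and just outside that window, was at 11.9, 13.4 and 14.3 CPM in wild-type and 1.01, 1.39 and 1.57 CPM in knockout (log2 -3.30 ± 0.28, edgeR adjusted p = 2.26e-06). Pbx4, a homeobox factor 14.3 Mb away, stood at 6.83, 6.02 and 5.55 CPM against 1.63, 1.89 and 1.82 CPM (log2 -1.78 ± 0.22). The groups lay well apart in both, and the absence of overlap was a condition of the choice of Lzts1. Next to the cluster Mri1, an enzyme of methionine salvage, fell from 31.8, 36.0 and 33.2 CPM to 13.8, 13.8 and 14.7 CPM (log2 -1.25 ± 0.14, edgeR adjusted p = 2e-05). Its neighbours Ccdc130, D8Ertd738e and Zswim4 were not called (log2 -0.09, -0.20 and -0.19). Among immune genes of the region, the cytokine gene Il15, 1.81 Mb away, was lower (log2 -1.31) and the receptor gene Il27ra, 0.166 Mb away, was lower (log2 -0.37), both chosen after their values were seen. Il15 encodes the main survival cytokine of NK cells, made by other cells. By chromosome, 15.9% of chromosome 8 genes were called. Chromosomes 6 and 12 had 18.1% and 17.0%, which became 15.0% and 11.1% without immunoglobulin and T cell receptor segments.

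**Figure D4:**
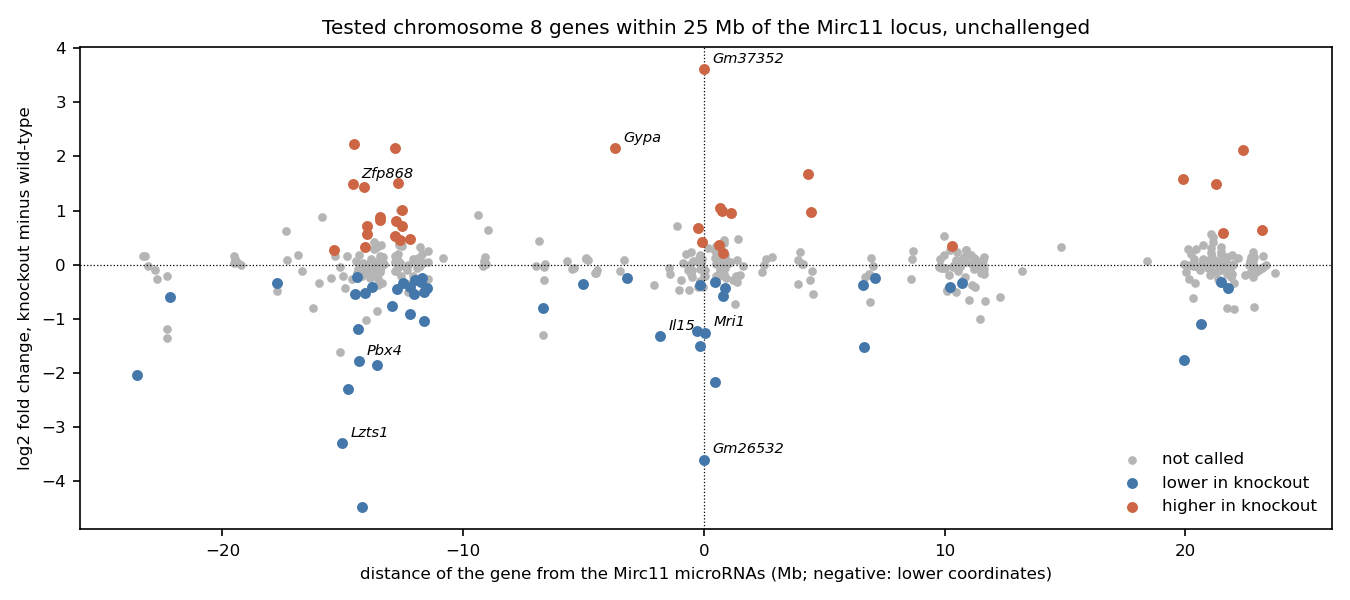
Log2 fold change (vertical axis, knockout minus wild-type) of tested chromosome 8 genes against their distance in Mb from the Mirc11 microRNAs, with called genes in colour. Gm37352 and Gm26532 lie at the cluster, and a second group of called genes lies between 10 and 15 Mb toward lower coordinates. Lzts1 (log2 -3.30) lies just beyond that group, at 15.02 Mb.

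The difference between the genotypes at rest was often not the difference after Listeria, where the 6 challenged libraries gave 3673 genes higher (22.7%) and 4238 lower (26.2%) in knockout. The 2 comparisons share no libraries. The challenged knockout libraries held mixed sex-linked transcripts, whereas the unchallenged knockout libraries had Y-linked RNA and little Xist. Sex and challenge therefore cannot be told apart in the differences between the 2 settings. Of the 1085 genes higher at rest, 415 were also higher after challenge, 348 were lower and 322 were not called, and the difference between the 2 effects was called for 729. Of the 821 lower at rest, 352 were lower after challenge, 190 higher and 279 not called, with the difference called for 493. Over all genes that difference was called for 5724 (35.3%). Of 50 erythroid markers, 42 were higher at rest, and 42 were higher and 2 lower after challenge, with medians of 1.14 and 1.0. Neutrophil markers had a median of 2.82 at rest and -0.51 after challenge, and the difference was called for 22 of 24. Platelet markers had medians of -1.25 and 0.96, with the difference called for 15 of 16, and the cell cycle list 0.55 and -0.51, with 42 of 44. Among single genes, Fos fell in both settings (log2 -0.83 at rest and -0.28 after challenge, edgeR adjusted p of the difference = 0.006), and Gzmb was not called at rest (log2 0.05) but fell after challenge (log2 -1.90, edgeR adjusted p of the difference = 4.6e-09).

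**Figure D5:**
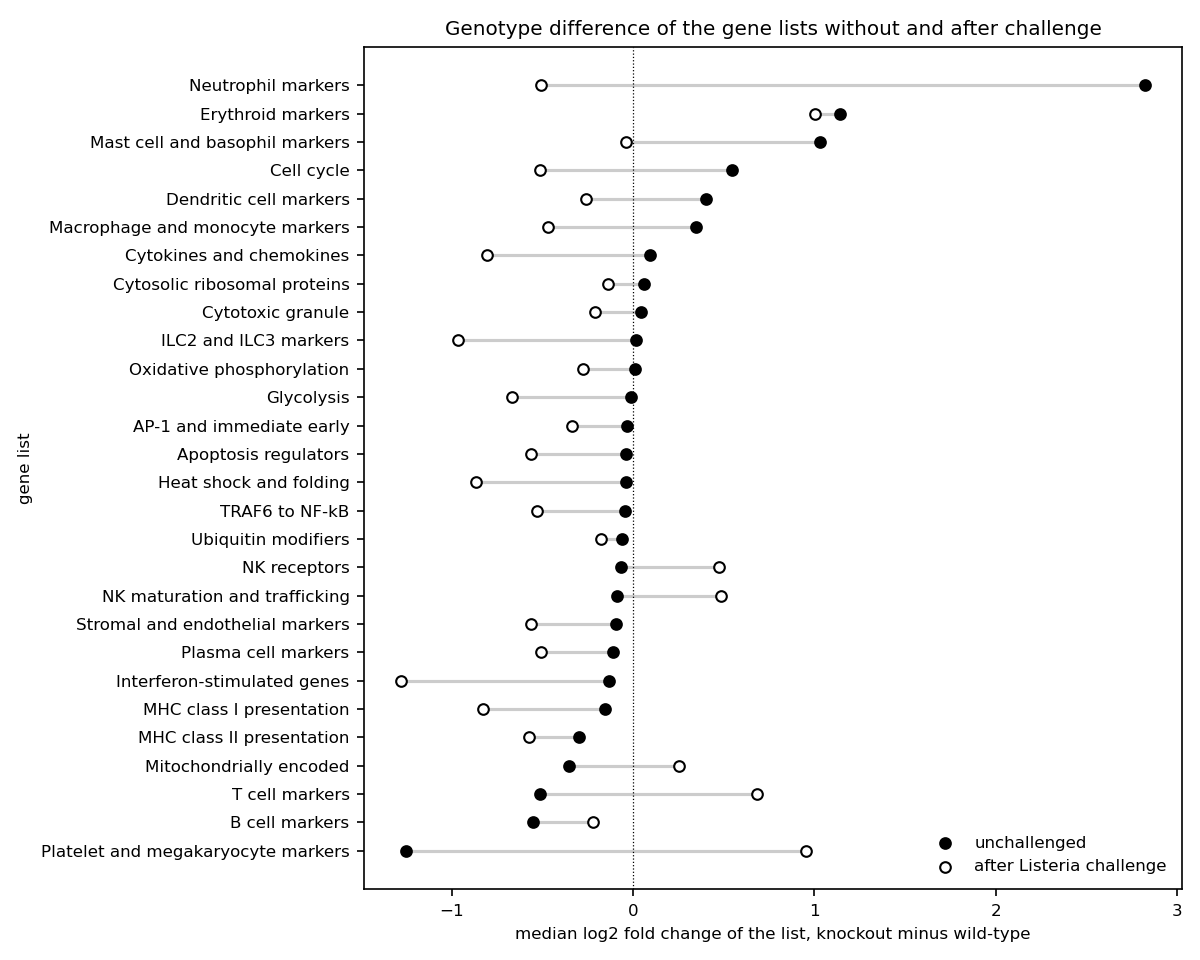
Median log2 fold change (knockout minus wild-type, horizontal axis) of each gene list in unchallenged libraries (filled) and in Listeria-challenged libraries (open). Neutrophil, cell cycle and platelet lists lie on opposite sides of 0 in the 2 settings, while erythroid markers have medians of 1.14 and 1.0.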

How the data were processed

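The members, gene lists and tests were chosen with earlier results of these data known. The authors deposited a table of counts per gene and library without normalization (50643 genes). The submitters' processing notes name RSEM 1.3.0, the GRCm38 build, Bowtie2 2.2.8, Trim Galore 0.4.1 and bcl2fastq. The sources used here do not give the rounding of RSEM estimates, the annotation release or the strand setting. The filterByExpr step kept 16694 genes (495 of them on X or Y, 49 of which were called), and libraries were scaled by TMM. All 12 libraries entered 1 model with a term per group, and every adjusted p is from edgeR 4.0.16 under R 4.3.3 (quasi-likelihood, robust estimation) with Benjamini-Hochberg adjustment over all genes tested, called below 0.05. Standard errors come from the log2 fold change and its F statistic. The script was tested on simulated data. Averaged over genes other than the lowest, squared differences between unchallenged libraries of a group were 3.4 to 10.1 times those of counting alone. For genes of low CPM counting error is a larger part of the spread, since 1 count is 0.0449 to 0.0561 CPM in these libraries.

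Named genes are, per direction, the 12 largest changes among called genes of at least 5 CPM and the 8 largest of at least 50 CPM without overlap between groups (antigen receptor segments, pseudogenes and clone-named genes excepted), the 4 members per list of smallest p, 21 fixed genes and tested genes within 50 kb of the cluster. Other genes named were chosen after their values were seen, the least and uncalled members of lists among them. The symbol Itgam has more than 1 row and is not described. Sites were searched in the longest 3′ UTR per gene (GENCODE vM21). Alternatives were upper-quartile and RLE scaling, other filters, DESeq2 1.42.0, limma-voom 3.58.1, no robust estimation, subsets of libraries, a replicate block and leaving out each library.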

Additional observations from a re-analysis of the deposited data

Results flagged for a closer look

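The 24 genes considered are the 12 per direction named for their size at rest, reaching 5 CPM in 1 genotype and leaving aside antigen receptor segments, pseudogenes and clone-named genes. For 23 of them the difference between the genotype effects at rest and after challenge had an edgeR adjusted p below 0.05, against 35.3% of all genes. They were chosen for a large effect at rest, which is part of the tested difference, so this count is a description and favours a difference. Sex-linked transcripts also differed between the unchallenged and challenged knockout libraries, so sex and challenge cannot be told apart here. Values are the log2 genotype effect at rest minus that after challenge. Among genes higher at rest, the difference was 5.18 for Lcn2, 4.46 for Ngp, 4.06 for Cd177, 4.04 for Ltf, 3.97 for S100a8, 3.72 for S100a9, 3.15 for Camp and 2.32 for Mpo, all neutrophil genes. It was 1.81 for Mcpt8 and 1.51 for Prss34, both basophil proteases, and 1.18 for Igha. Tmcc2 went the other way with -1.61, its increase being larger after challenge. Among genes lower at rest, the difference was -3.93 for Draxin, -3.13 for Mfap3l, -2.80 for Ppbp, -2.73 for Sh3bgrl2, -2.42 for Ptprk, -2.39 for Gng11, -2.18 for Peg10, -2.15 for Hist1h4m, -1.96 for Gucy1b3, -1.37 for Mylk and -1.27 for Lzts1.

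Y-linked transcripts, which lie outside the comparison, summed to a mean of 319 CPM in the unchallenged knockout libraries, above the wild-type libraries at 3.20, 2.89 and 115 CPM.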

How the results depend on the processing

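The counts of genes higher (1085) and lower (821) in knockout ranged from 784 to 1335 and from 487 to 943 over the alternatives. Leaving out 1 library gave 828 to 897 higher and 487 to 707 lower genes, the lowest without wild-type replicate 3. With DESeq2 the counts were 1121 and 812, with limma-voom 1014 and 788, and with the 6 unchallenged libraries alone 1335 and 943. Chosen after seeing the data, a fit without the challenged knockout libraries gave 1271 and 919, and one without wild-type replicate 4 and all challenged libraries 1077 and 923. The replicate block, in which the label's number pairs libraries within a treatment, gave 866 higher and 568 lower genes. Residuals of same-numbered libraries correlated at 0.12, -0.048 and 0.006, and those of unlike-numbered libraries at -0.139 to 0.135. With 3 libraries per group these values cannot decide whether the numbers mark a pairing. The median difference between genes with and without a microRNA site was -0.005 and ranged from -0.0155 to 0.0117 when 1 library was left out. It was 0.0017 without wild-type replicate 2 and 0.0117 without knockout replicate 4, and the cause was not tested. The haemoglobin difference stayed between 2.41 and 2.64 percentage points. Of 2889 values for 161 named genes, 2787 stayed on their side of the threshold, 50 gained a call, 52 lost one and 0 reversed. With 3 libraries per group, small changes of low genes are the least certain.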

Other observations

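Immunoglobulin variable segments were called in both directions, against 11.8% of all genes called. Of 91 heavy chain segments 27 were higher and 20 lower in knockout, and of 88 kappa segments 21 were higher and 23 lower. The summed heavy chain segments were at 368 to 468 CPM in wild-type and 337 to 368 CPM in knockout, and the kappa segments at 504 to 601 CPM and 477 to 517 CPM. The lambda segments summed to 54.6 to 67.5 CPM in wild-type and 83.4 to 90.4 CPM in knockout. Single segments changed by large factors, for example Ighv1-9 from a mean of 77.9 to 4.31 CPM (log2 -4.17) and Igkv13-84 from 53.4 to 2.19 CPM (log2 -4.61), both chosen after their values were seen. Variable segments resemble each other, so counts of single segments are uncertain.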
